A study of Mus musculus with 14 samples.

Results

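The cytosolic ribosomal protein genes were taken by symbol: protein-coding genes named Rpl or Rps with a number, together with Rplp0, Rplp1, Rplp2 and Rpsa, leaving out the ribosomal S6 kinases, pseudogenes and clone names. This gave 86 of the 24983 genes with a count in at least 1 library. RNA sequencing had been done on 14 mouse livers, 6 from recipients of a transplant (titled iBAT 2x) and 8 from recipients of an empty scaffold (titled Sham-WT). All recipients were fed a high-fat diet, and the transplant was a silk scaffold that carried differentiated pre-adipocytes, which had been isolated from the stromal fraction of brown fat. The labels give no strain, age or sex, no time after the transplant and no meaning for 2x, and they leave it unsaid whether the samples come from different animals. The p-values therefore speak of the spread among these 14 samples alone. The study's stated question is how the transplant alters the metabolism of its host, including gene expression in the liver.

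Each ribosome joins a small subunit, which decodes the mRNA, with a large subunit, which forms peptide bonds, and most of their proteins are encoded by 1 active gene each. The mRNAs are short and abundant, and they typically begin with a C followed by a run of pyrimidines, the 5′ terminal oligopyrimidine (TOP) tract, through which growth signals acting by mTOR and LARP1 control their translation. The liver, which secretes most plasma proteins, holds large amounts of them.

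The tract was looked for in RefSeq promoters of build GRCm38.p6, because it is the feature by which these mRNAs are known. The search took a C followed by at least 4 letters of C or T, starting at the annotated start or within 5 bases on either side of it, on the gene's strand. The promoter table held 66 of the 86 genes. Of these, 30 (45.5%) had such a run, beside 21.2% of all 27025 genes in the table. The following 4 examples with a run, and 1 called gene without, show what was scored. Each line runs from 10 bases before the start to the 20th base of the transcript, and the capitals mark the run from the C nearest the annotated start onwards.
Rps18 (chr17:33955646-33955675, minus strand): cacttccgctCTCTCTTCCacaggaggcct
Rpl35a (chr16:33056472-33056501, plus strand): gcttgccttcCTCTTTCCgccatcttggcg
Rps21 (chr2:180257369-180257398, plus strand): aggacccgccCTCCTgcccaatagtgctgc
Rps10 (chr17:27635225-27635254, minus strand): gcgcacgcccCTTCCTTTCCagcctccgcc
Rpl5 (chr5:107900518-107900547, plus strand): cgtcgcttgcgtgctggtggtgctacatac
In Rps18, Rpl35a, Rps21 and Rps10 that C was the annotated start itself, and further pyrimidines preceded it. Rpl35a has 3 annotated starts in the table and Rps21 has 2, of which only the start printed here had a run. Counted over starts, 41.0% of 78 member windows and 18.3% of all windows in the table held one. Rpl5 had no such letters within the searched bases, which says only that they are not at this annotated start. The 30 tested genes with a run had a median log2 fold change (transplant minus empty scaffold) of 0.46 with 6 called higher, and the 33 tested genes without one had a median of 0.46 with 4 called higher. Over all tested genes 3.31% were called higher. Tested members that the promoter table lacks are in neither count.

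A minority of the ribosomal protein genes was called modestly higher in the transplant livers, and the calls changed with single libraries and with transcript length. Of 83 genes with enough counts to test, 13 (15.7%) were higher and 0 lower (adjusted p under 0.05, quasi-likelihood test of edgeR), beside 3.31% of all 13131 tested genes called higher and 4.23% called lower. All 83 fitted log2 fold changes were above 0, which 47.1% of all tested genes were, but on the scale of the deposited TPM, a level per transcript length, 46 of the 83 were. The median log2 fold change was 0.45, beside -0.02 over all tested genes. On the TPM scale, as log2(TPM + 1), the median of all tested genes was -0.30 and that of the ribosomal protein genes 0.01, which is 0.31 above it, and 82 of 83 lay above it. Of the 13 called genes 1, Rps19, lay below 0 on the TPM scale (-0.07), where the highest of them was Rps21 at 0.20, and all 13 lay above the median of all tested genes. In no member did every transplant library exceed every empty scaffold library. Such a separation was rare among all tested genes too (75, or 0.571%), so its absence says little about the members. Single libraries moved the count of calls among the members, and that among all genes with it. The 13 calls fell to 0 by edgeR without transplant replicate 1 (0.385% of all tested genes higher) or 5 (0.595%), or empty scaffold replicate 3 (0.796%), 4 (0.714%) or 8 (0.925%). In these 5 fits 43, 60, 66, 66 and 73 members had an unadjusted p under 0.05, beside 22.0%, 25.3%, 24.3%, 24.5% and 28.1% of all tested genes. They fell to 1 without empty scaffold replicate 2 (1.38%), to 4 without transplant replicate 3 (1.31%) or empty scaffold replicate 1 (1.66%), and to 5 without transplant replicate 4 (2.33%). They rose to 29, 28 and 59 without empty scaffold replicates 5, 6 and 7 (5.71%, 4.86% and 7.44%), and were 12 and 15 without transplant replicates 2 and 6 (2.59% and 2.79%). DESeq2 called 42 members higher, beside 7.18% of the genes it tested called higher and 6.37% called lower. With a trend of level on transcript length and GC content removed from each library, as described further on, 0 members were called by edgeR, beside 1.68% of all tested genes called higher. Then 29 members had an unadjusted p under 0.05 in either direction, beside 22.2% of all tested genes, and the median was 0.16.

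**Figure D1:**
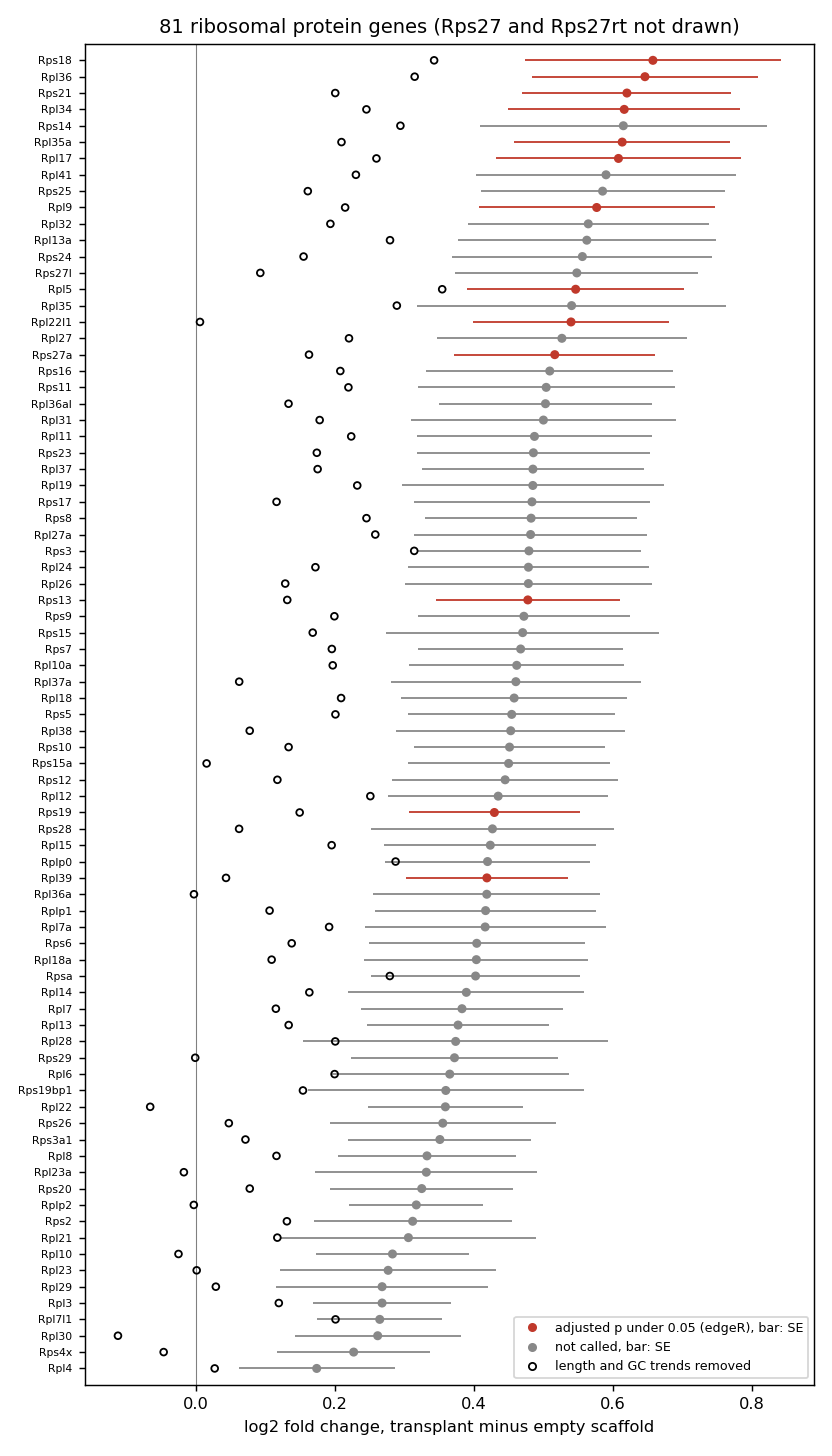
Fold change of 81 ribosomal protein genes, in order of size. The x axis is the log2 fold change, transplant minus empty scaffold, filled points are edgeR's values with the standard error as a bar (red where called), and open points are the values after the length and GC trends were removed. Every filled point lies above 0, which 46 of the 83 tested genes did on the TPM scale, where the median of all tested genes was -0.30. The open points lie closer to 0. Rps27 and Rps27rt, whose standard errors exceed 1, are not drawn.

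The members spanned a wide range of levels. Over all 14 libraries the highest mean TPM were those of Rpl41, which encodes the shortest ribosomal protein, at 992 ± 284 TPM (SD, n = 14), Rplp1 at 914 ± 81.1 and Rps2 at 912 ± 82.0. These 3 do not differ beyond their spread. The lowest tested levels were those of Rps19bp1 at 23.0 ± 3.42 TPM, Rpl7l1 at 32.9 ± 12.0 and Rpl22l1 at 78.5 ± 11.8. Rps19bp1 fits the symbol rule but encodes a protein that binds RPS19, not a subunit of the ribosome. The paralogs Rpl10l, Rpl39l and Rpl3l, of which Rpl10l is known from testis and Rpl3l from striated muscle, reached at most 1, 2 and 3 counts in a library and were too low to test. The members together took 1.51% to 2.53% of the counts of a transplant library and 1.32% to 1.85% of those of an empty scaffold library. Their share of TPM was 2.70% to 4.47% and 3.17% to 3.86%, so the groups overlapped on both scales. Protein-coding transcripts held 93.4% of the members' counts in either group, and transcripts with a retained intron 1.89% ± 0.12 (SD, n = 6) against 1.87% ± 0.16 (SD, n = 8). The share of TPM held by major urinary protein (Mup) genes, which enters every TPM as part of the total, was 8.37% to 23.6% in transplant and 4.0% to 11.8% in empty scaffold libraries.

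Of 31 tested small subunit genes 5 were higher (16.1%, beside 3.31% of all tested genes), and the median was 0.47. They were Rps18, Rps21, Rps13, Rps19 and Rps27a. Rps18 (ENSMUSG00000008668), a protein of the head of the small subunit, ranged from 304 to 608 CPM (a level not scaled by length) in the transplant livers with a median of 361. In the empty scaffold livers it ranged from 183 to 358 CPM with a median of 232. The upper empty scaffold values reached into the transplant range. Its log2 fold change was 0.66 ± 0.18 (SE), with an adjusted p = 0.0422 by edgeR, and 0.34 ± 0.10 with an adjusted p = 0.0539 after the trends were removed. Rps21 (ENSMUSG00000039001) ranged from 87.1 to 202 CPM with a median of 114 in transplant and from 69.5 to 99.95 with a median of 80.7 in empty scaffold livers. It had the smallest adjusted p of all members, 0.0292 by edgeR, at a log2 fold change of 0.62 ± 0.15, and 0.20 ± 0.14 with the trends removed (adjusted p = 0.425). Rps19, the gene most often mutated in Diamond-Blackfan anaemia, ranged from 125 to 219 CPM with a median of 152 against 95.0 to 146 with a median of 113. Its log2 fold change was 0.43 ± 0.12 (adjusted p = 0.0439 by edgeR), and 0.15 with the trends removed. In deposited TPM its mean was 276 ± 76.6 in transplant and 284 ± 55.5 in empty scaffold livers, the opposite direction and well within the spread. As log2(TPM + 1) the difference of Rps19 was -0.07, above the median of all tested genes on that scale, -0.30.

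Rps13 had a mean of 137 ± 31.3 CPM (SD) over 6 transplant livers and of 98.6 ± 15.3 CPM (SD) over 8 empty scaffold livers. Rps27a, which encodes a ribosomal protein fused to ubiquitin, stood at 215 ± 52.6 against 150.2 ± 27.3 CPM. The log2 fold changes of Rps13 and Rps27a were 0.48 ± 0.13 and 0.52 ± 0.14 (adjusted p = 0.0410 and 0.0422 by edgeR). With the trends removed they were 0.13 and 0.16 (adjusted p = 0.348 and 0.239 by edgeR). Rps14 and Rps24, which were among the members with the largest difference between the ranges of title numbers given further on, had log2 fold changes of 0.62 and 0.56 that did not pass (adjusted p = 0.0685 and 0.0690 by edgeR). Rps6, the substrate of the S6 kinases, had a value of 0.40 ± 0.16 (adjusted p = 0.0996), and Rpsa, also described as a laminin receptor, one of 0.40 ± 0.15 (adjusted p = 0.0929). Rps2 (0.31) and the X-linked Rps4x (0.23) were not called either. With the trends removed Rps4x stood at -0.05.

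Of 43 tested large subunit genes 7 were higher (16.3%, beside 3.31% of all tested genes), with a median of 0.45. They were Rpl36, Rpl35a, Rpl34, Rpl39, Rpl5, Rpl17 and Rpl9. Rpl36 (ENSMUSG00000057863) ranged from 122 to 243 CPM with a median of 153 in transplant livers and from 81.5 to 150.3 with a median of 102 in empty scaffold livers. Its log2 fold change of 0.65 ± 0.16 was called (adjusted p = 0.0324 by edgeR), and with the trends removed it stood at 0.31 ± 0.09 with an adjusted p = 0.0552. Rpl35a, another gene of Diamond-Blackfan anaemia, ranged from 155 to 274 CPM with a median of 177 against 93.2 to 163 with a median of 118. Its log2 fold change was 0.61 ± 0.16 (adjusted p = 0.0327 by edgeR) and 0.21 with the trends removed. In both genes the lowest transplant libraries lay within the empty scaffold range.

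Rpl5 and Rpl11, which with 5S RNA bind and inhibit MDM2 when ribosome assembly fails, differed in their calls. Rpl5 (ENSMUSG00000058558) ranged from 262 to 544 CPM with a median of 321 in transplant and from 208 to 315 with a median of 217 in empty scaffold livers, a log2 fold change of 0.55 ± 0.16 (adjusted p = 0.0442 by edgeR). It had the largest value after removal of the trends among the called members, 0.35 ± 0.12 (adjusted p = 0.0965). Rpl11 stood at 0.49 ± 0.17 and was not called (adjusted p = 0.0759). Whether the fold changes of this pair differ was not tested. Rpl34, Rpl17, Rpl9 and Rpl39, the last at the exit tunnel of the nascent chain, had log2 fold changes of 0.62, 0.61, 0.58 and 0.42, and after removal of the trends of 0.25, 0.26, 0.21 and 0.04. Rpl41 (0.59), Rpl7 (0.38), Rpl10 (0.28) and Rpl3 (0.27) were not called, nor were Rplp0, Rplp1 and Rplp2, which form the stalk that recruits translation factors, at 0.42, 0.42 and 0.32. Once the trends were removed, Rpl10 and Rplp2 stood at -0.03 and 0.00.

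Some members have a paralog, a second gene for a closely related protein. Rpl22l1 (ENSMUSG00000039221) ranged from 17.3 to 32.6 CPM with a median of 22.5 in transplant and from 12.0 to 19.7 with a median of 16.6 in empty scaffold livers. It rose by 0.54 ± 0.14 on the log2 scale (adjusted p = 0.0353 by edgeR) and stood at 0.01 with the trends removed (adjusted p = 0.982). Its partner Rpl22 stood at 0.36 ± 0.11 (adjusted p = 0.0553) and at -0.07 after that removal. Rps27l, Rpl36al and Rpl7l1 had values of 0.55, 0.50 and 0.26 and were not called. Rpl36a, the partner of Rpl36al, stood at 0.42, and at 0.00 with the trends removed.

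Rps27 and Rps27rt, the latter a retrogene of it, could not be read as separate genes, and Rps27rt was chosen after its values were seen. The Rps27 transcript of 345 bases is identical from its base 5 on to the first 341 bases of the Rps27rt transcript, which goes on for 33 bases at its 3′ end. The starts show the copied stretch, with the 19 letters that both windows share in capitals (RefSeq, GRCm38.p6, 10 bases before to 20 bases from the annotated start).
Rps27 (chr3:90213629-90213658, minus strand): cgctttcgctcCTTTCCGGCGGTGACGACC
Rps27rt (chr9:114982720-114982749, minus strand): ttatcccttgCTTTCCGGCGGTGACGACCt
In 8 libraries Rps27 ranged from 116 to 333 CPM and Rps27rt from 0.515 to 4.06 CPM. In the other 6, transplant replicates 2 and 3 and empty scaffold replicates 1 to 4, Rps27 was listed at 1.73 to 9.79 CPM and Rps27rt at 79.6 to 168 CPM. The split followed the mean fragment length that the deposited effective lengths imply, 223 to 237 bases in the 8 libraries and 201 to 204 bases in the 6. Rps27 alone gave a log2 fold change of 0.96 ± 1.17 (adjusted p = 0.602 by edgeR). Counts of both genes together ranged from 149.9 to 336 CPM in transplant and from 89.4 to 159.8 CPM in empty scaffold livers, and the sum rose by 0.71 ± 0.19 (adjusted p = 0.0372 by edgeR), a fit added after the data were seen that called 14 of 82 members higher, beside 3.33% of all tested genes. Rpl10 shares 740 identical bases with Rpl10-ps3, also chosen after its values were seen, to which 195 to 447 CPM were assigned, beside 56.2 to 98.4 CPM for Rpl10. The 2 counted together stood at a log2 fold change of 0.35 ± 0.15 (adjusted p = 0.116 by edgeR).

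**Figure D2:**
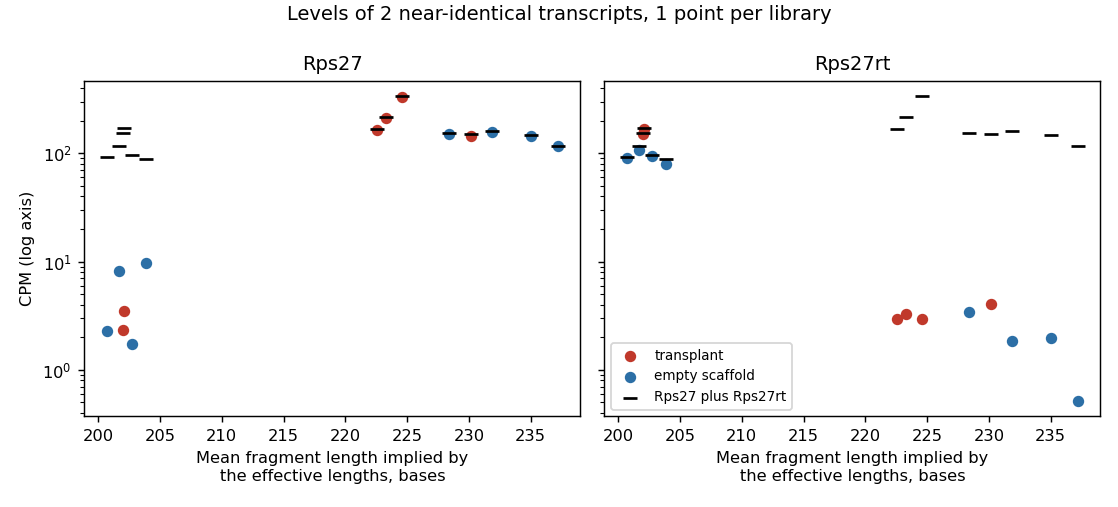
CPM (log axis) of Rps27 and Rps27rt in each library against the mean fragment length implied by the deposited effective lengths, in bases, with bars for the sum of both genes. The 6 libraries at 201 to 204 bases hold the counts under Rps27rt, and the 8 libraries at 223 to 237 bases hold them under Rps27.

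The libraries differed in how level depended on transcript length, in genes that are not members. The slope of log2 CPM, as a deviation from the gene's mean, on log2 length ranged from -0.27 to 0.03 in transplant libraries and from -0.12 to 0.24 in empty scaffold libraries. The median deviation of the ribosomal protein genes was highest in transplant replicate 1, at 0.75, which also had the lowest slope, -0.27. It was lowest in empty scaffold replicate 4, at -0.60, which had the highest slope, 0.24. In the other transplant libraries the median deviation was -0.01, 0.05, 0.31, 0.40 and 0.08 for replicates 2 to 6. In the other empty scaffold libraries it was -0.36, -0.44 and -0.52 for replicates 1 to 3 and 0.06, 0.13, 0.24 and -0.10 for replicates 5 to 8. Empty scaffold replicates 5 to 7 thus stood above transplant replicate 2, and the groups overlapped.

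The trend of the other genes, read off at the members' own length and GC content, was 0.18 ± 0.20 (SD, n = 6) in transplant and -0.14 ± 0.27 (SD, n = 8) in empty scaffold libraries. What remained after its removal was 0.09 ± 0.13 and -0.06 ± 0.07. These residual medians ranged from -0.04 to 0.27 in transplant and from -0.16 to 0.02 in empty scaffold libraries. With the trends removed in edgeR, 74 of 83 members lay above 0 beside 50.5% of all tested genes. Removal of the length trend alone left 0 members called by edgeR, beside 1.90% of all tested genes called higher, and a median of 0.15. Unadjusted p-values were under 0.05 for 24 members, beside 22.9% of all tested genes. An offset from the deposited effective lengths also left 0 called (1.04% of all tested genes higher), yet its median was 0.44, and 62 members had an unadjusted p under 0.05, beside 24.5% of all tested genes. With transplant replicate 1 left out as well as the trends removed, 0 members were called (0.0378% of all tested genes higher) and 13 had an unadjusted p under 0.05 (18.3% of all tested genes), at a median of 0.11. The slopes also sorted by the implied fragment length. At 223 to 237 bases they were -0.272 to -0.093 in transplant and -0.123 to -0.006 in empty scaffold libraries. At 201 to 204 bases they were -0.004 to 0.034 in transplant and 0.192 to 0.241 in empty scaffold libraries. Why the libraries differ in slope was not tested.

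**Figure D3:**
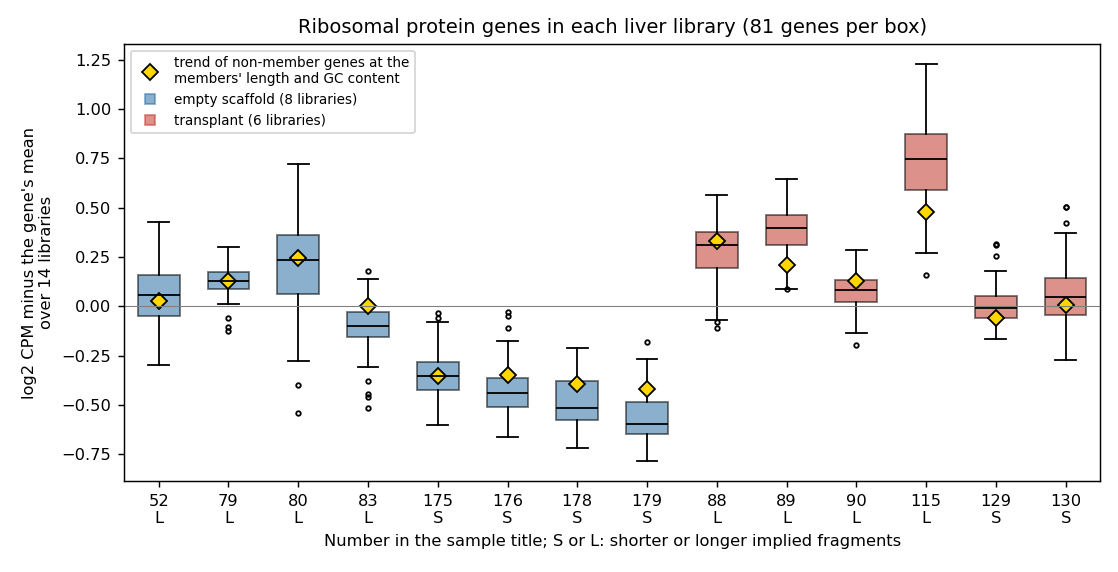
Deviation of 81 ribosomal protein genes from their own mean over 14 libraries (y axis, log2 CPM), 1 box per library (median, quartiles, whiskers to 1.5 times the quartile range), labelled by the number in the sample title. Diamonds give the trend of non-member genes at the members' length and GC content. Boxes and diamonds move together, from empty scaffold replicate 4 (the last blue box) to transplant replicate 1 (the highest red box). Over all 83 tested members, on edgeR's log2 CPM, the median deviation of these 2 libraries was -0.60 and 0.75.

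Members and other genes were also set side by side within bins of transcript length. Of 33 members under 600 bases 7 were higher (21.2%), with a median of 0.48, and of 223 other genes of that length 27 were higher (12.1%), with a median of 0.43. From 600 to 900 bases the medians were 0.47 for 30 members and 0.33 for 692 other genes, with 5 (16.7%) and 69 (9.97%) higher. From 900 to 2000 bases they were 0.38 for 20 members and 0.15 for 4206 other genes, with 1 and 246 (5.85%) higher. The members of this bin were shorter, at a median of 1073 bases against 1497, so these medians are not matched for length. In finer bins, other genes had medians of 0.30 around 919 bases and 0.23 around 1140 bases. Other genes of 2000 bases or more had a median of -0.13. Across the 83 members, log2 length and log2 fold change had a Pearson r of -0.45, and 0.16 after the trends were removed. These are descriptions across genes of the same libraries.

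**Figure D4:**
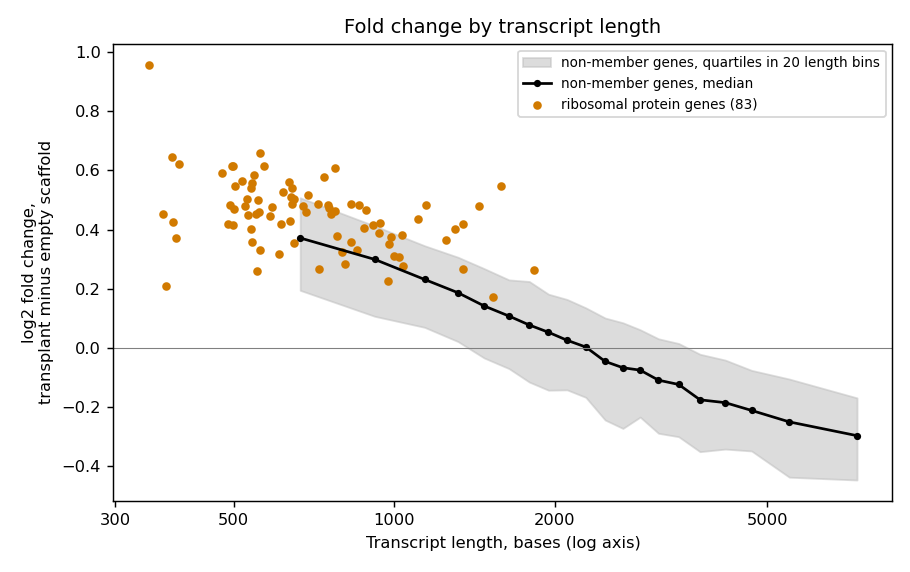
Log2 fold change against transcript length in bases (log axis). The line is the median and the band the quartiles of genes that are not members, in 20 bins of equal number, and orange points are the 83 tested ribosomal protein genes. The median falls from 0.37 in the shortest bin to -0.30 in the longest.

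The members' median log2 fold change was not the same in both ranges of the numbers that the sample titles carry, whose meaning is not given. No single member's difference between the ranges was called. Among samples numbered below 100 (3 transplant, 4 empty scaffold) the median log2 fold change was 0.18. There 0 members were called by edgeR, beside 0.0154% of all tested genes called higher, and 2 had an unadjusted p under 0.05, beside 9.31% of all tested genes. Among samples numbered 100 or above (3 and 4) the median was 0.78 and 77 members were higher, beside 14.5% of all tested genes. Rps18 had log2 fold changes of 0.29 and 1.10 in the lower and the upper range, Rps14 of 0.13 and 1.17, and Rps19bp1 of -0.01 and 0.84. The difference between the ranges had a median of 0.60 over the members. By edgeR's interaction test it was called for 0 members (lowest adjusted p = 0.176), as for 0.0% of all tested genes, while 64 members had an unadjusted p under 0.05, beside 17.3% of all tested genes. With the trends removed the median difference was 0.19, 0 members were called, and 12 had an unadjusted p under 0.05, beside 10.7%. With the range as a covariate 71 members were higher, beside 10.5% of all tested genes, at a median of 0.48, and 2 with the trends removed as well, beside 3.20%.

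The implied fragment length divides the libraries in a similar way, since all 7 samples numbered below 100 and transplant replicate 1 form the class of longer fragments. Within that class (4 transplant, 4 empty scaffold) the median was 0.33 and 0 members were called by edgeR, beside 0.0% of all tested genes called higher, while 25 had an unadjusted p under 0.05, beside 12.9%. Within the class of shorter fragments (2 and 4) it was 0.49 and 74 members were higher, beside 11.0% of all tested genes. After removal of the trends, the residual medians of the shorter class were 0.04 and 0.06 in its transplant libraries and -0.16 to -0.01 in its empty scaffold libraries. In the longer class they were -0.04 to 0.27 and -0.09 to 0.02. The difference between the classes was called for 0 members by edgeR's interaction test (1 at an unadjusted p under 0.05, beside 6.05% of all tested genes). With the class as a covariate 69 members were higher, beside 9.29% of all tested genes, and 1 with the trends removed as well, beside 2.66%. Within each range all title numbers of one group lie to 1 side of those of the other, so group and anything that follows the numbers cannot be told apart there.

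The lists of translation and ribosome biogenesis genes had lower medians than the ribosomal protein genes (0.45). Among ribosome-linked genes outside the symbol rule, Fau, which encodes a small subunit protein fused to a ubiquitin-like domain, was higher at 0.54 ± 0.14 (adjusted p = 0.0358 by edgeR). The scaffold gene Rack1 stood at 0.41 and was not called. Of 25 translation genes 1 was higher (4%, beside 3.31% of all tested genes), and the median was 0.29. It was the elongation factor gene Eef1b2 (0.43 ± 0.12). Of 42 ribosome biogenesis genes 3 were higher (7.14%), at a median of 0.14. They were Nop16, a nucleolar factor of large subunit assembly (0.51 ± 0.10), Nmd3, the export adaptor of the large subunit (0.30), and Polr1d, a subunit of RNA polymerases I and III (0.50). Nop16 had a mean of 31.2 ± 2.83 CPM (SD) over 6 transplant livers and of 22.0 ± 2.97 CPM (SD) over 8 empty scaffold livers, and was the one still called with the trends removed (0.35, adjusted p = 0.0187 by edgeR).

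Of 15 genes that regulate ribosomal protein mRNAs, the mTORC1 activator Rheb was higher (0.39 ± 0.11, adjusted p = 0.0400 by edgeR, and 0.0668 with the trends removed), at a list median of -0.20 that was 0.03 with the trends removed. Of 9 host genes of small nucleolar RNAs, several of which also have TOP tracts, 4 were higher, beside 3.31% of all tested genes. They were Zfas1 (0.81), Snhg12 (0.50), Snhg6 (0.72) and Snhg8 (0.56). Their list had a median of 0.66, and of 0.16 with 0 called by edgeR (1 at an unadjusted p under 0.05) once the trends were removed.

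Other large families of housekeeping genes had medians above 0 as well. Of their tested genes 12.8%, 9.64% and 26.3% were called higher, in the order given here, beside 3.31% of all tested genes. Of 78 mitochondrial ribosomal protein genes 10 were higher and 0 lower, at a median of 0.33, with Mrps22 (0.37), Mrps24 (0.51) and Mrpl33 (0.58) having the smallest adjusted p. Of 83 tested nuclear respiratory chain genes 8 were higher, at a median of 0.41, led by Atp5k (0.54), Cox7a2 (0.51) and Ndufb2 (0.53). Of 38 tested proteasome genes 10 were higher, at a median of 0.29, led by Psmd14 (0.39), Psma6 (0.49) and Psmd6 (0.34). With the trends removed these medians were 0.13, 0.12 and 0.13, beside 0.16 for the cytosolic ribosomal protein genes, and 1 gene of the 3 families was called, the proteasome assembly gene Psmd9 (0.41, adjusted p = 0.0360 by edgeR).

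**Figure D5:**
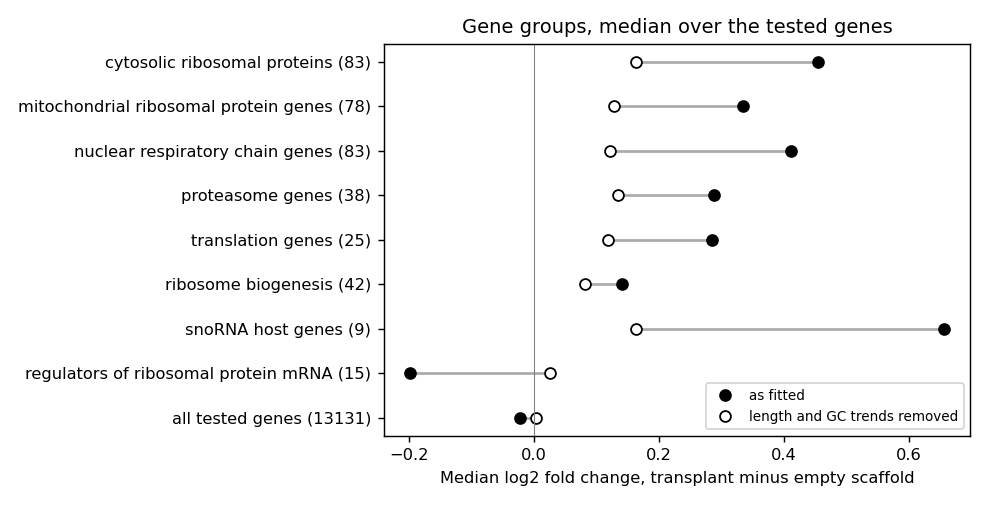
Median log2 fold change of each gene group as fitted (filled) and with the length and GC trends removed (open), with the number of tested genes in brackets. The cytosolic ribosomal protein genes go from 0.45 to 0.16 and the snoRNA host genes from 0.66 to 0.16. On the TPM scale the ribosomal protein genes stand at 0.01 and all tested genes at -0.30.

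Total estimated counts per library were 19482580 to 28910968. In RNA from whole liver, fewer cells of a type and less RNA per cell cannot be told apart. Hepatocyte markers were present in every library, their summed level was 82581 to 130885 CPM in transplant and 70993 to 129567 CPM in empty scaffold livers, and 0 of 7 were called by edgeR. Of 11 Kupffer cell and macrophage markers 5 were lower, with a sum of 155 to 234 against 198 to 469 CPM. Over all tested genes 4.23% were called lower. Of 8 sinusoidal endothelial markers 2 were lower (86.3 to 125 against 113 to 178.3 CPM), and of 8 stellate cell and fibroblast markers 3 were lower (128 to 252 against 160 to 363 CPM). Of 2 tested neutrophil markers 1 was lower, but the listed neutrophil markers summed to only 0.735 to 3.12 against 0.764 to 3.97 CPM. Of the 5 cholangiocyte, 4 T and natural killer cell, 4 B and plasma cell and 5 erythroid markers tested, 0 were called. No marker was listed at 0 in every library. The part of these markers in the ribosomal protein values was not tested.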

How the data were processed

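Per the labels' protocols, 200 ng of liver RNA with a RIN above 7 went into stranded mRNA libraries (fragmentation for 10 minutes, 12 PCR cycles). The submitters' processing notes name fastp 0.20, kallisto 0.46.1, DESeq2 1.38 and GRCm39. What options and strand setting kallisto was run with is not given in the sources used here. For each library the authors deposited, per the file headers, 128803 transcripts with their estimated count and TPM, length and effective length.

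Gene names came from GENCODE M21 (GRCm38, not the named build), which matched 93.7% of transcripts and at least 99.4% of counts. Estimated counts were summed per gene and rounded. Genes passing filterByExpr (13131) were TMM-scaled and tested with edgeR 4.0.16 (R 4.3.3, quasi-likelihood, robust, two-sided, group only), with Benjamini-Hochberg adjustment over all tested genes and a threshold of 0.05. Alternatives included DESeq2 1.42.0 and the settings named in the closing section. To remove trends, natural splines with 4 degrees of freedom on log2 transcript length (weighted over a gene's transcripts by TPM) and GC content were fitted per library to genes that are not members and entered as offsets. Implied fragment length was the commonest difference of length and effective length plus 1 over transcripts of at least 1000 bases, and 210 bases divided the classes. The tests and the offset were tested on simulated data.

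Members, lists and alternatives were chosen with earlier results of these data known. Named genes were the called members, the 10 members with the smallest adjusted p, the 3 highest and 3 lowest by TPM, a fixed set (P-stalk genes, Rpsa, Rps6, Rps19, Rpl5, Rpl11 and genes with paralogs), the 3 with the largest fold change or difference between number ranges, and up to 3 called genes per other list with the smallest adjusted p. Others are marked, or were named as the only genes of a short count. Of the fixed set, Rps4l was not analysed here. Replicate numbers follow accession order. A gene of the lists is not reported here.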

Additional observations from a re-analysis of the deposited data

Results flagged for a closer look

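The levels of 34 named genes and 3 measures per library (the members' median deviation, the length slope and the residual) gave 74 sets of libraries, 1 per group. In 11 of them a library stood apart from the others of its group by more than the limit of Dixon's test, which chance exceeds in about 1 in 20 such sets. All sets come from the same 14 libraries and are not independent, so the 11 cannot be weighed against that rate. In 10 of the 11 the library was transplant replicate 1, at the highest level of its group: Rpl10 at 98.4 CPM, Rpl34 at 249 CPM, Rpl41 at 566 CPM, Rplp0 at 630.1 CPM, Rps13 at 198 CPM, Rps14 at 857 CPM, Rps19 at 219 CPM, Rps21 at 202 CPM, Rps24 at 339 CPM and Rps27a at 316 CPM. The same library had the lowest length slope of all. In the other, Rpl10 stood at 90.1 CPM in empty scaffold replicate 7. Without transplant replicate 1, 0 members were called by edgeR (43 at an unadjusted p under 0.05, beside 22.0% of all tested genes), and the median log2 fold change of the members was 0.33.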

How the results depend on the processing

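No paired analysis was possible because the labels number no replicates, and numbers taken from accession order cannot pair livers. The count of members called higher was 13, beside 3.31% of all tested genes, and their median log2 fold change 0.45. Count and median stayed within 1.5 times or 1 SD between libraries (0.31 for the median) under RLE and upper-quartile factors and TMM without the members or without Mup genes. The same held with no filter on low counts and with pseudogene counts added to members. The medians there were 0.42 to 0.47. That SD is wide, since the median of 0.16 with the length and GC trends removed also lies within 1 SD of 0.45. The pseudogene fit moved only pseudogenes named after a member and tested 13130 genes in place of 13131, so it says little about other pseudogenes. Leaving out 1 library at a time gave 0 to 59 calls, with 0 in 5 of 14 fits, and medians of 0.33 to 0.51. In these fits 0.385% to 7.44% of all tested genes were called higher. DESeq2 called 42. The calls were 0 with the length trend removed (1.90% of all tested genes higher), with the length and GC trends removed (1.68%) and with the effective-length offset (1.04%). With the number range as a covariate they were 71 (10.5%). They were 0 in the range below 100 alone (0.0154%) and 77 in the range of 100 or above alone (14.5%), where the median was 0.78. In fits chosen after seeing the data, the calls were 69 with the fragment class as a covariate (9.29% of all tested genes higher). Within the longer and shorter class they were 0 and 74 (0.0% and 11.0%). Further such fits gave 2 and 1 with both trends removed and the range or the fragment class as a covariate (3.20% and 2.66%, median 0.14 with the latter). The last such fit gave 0 with the trends removed and transplant replicate 1 left out (0.0378%, median 0.11). The cause of these shifts was not tested.

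On the deposited TPM scale, also chosen after seeing the data and with no test, the members' median was 0.0069, and 14 of 34 named genes lay below 0: Rpl10 at -0.16, Rpl3 at -0.20, Rpl36a at -0.033, Rpl7 at -0.054, Rpl7l1 at -0.29, Rplp0 at -0.053, Rplp1 at -0.026, Rplp2 at -0.17, Rps19 at -0.065, Rps19bp1 at -0.049, Rps2 at -0.12, Rps4x at -0.22, Rps6 at -0.038 and Rpsa at -0.026. All 34 lay above the median of all tested genes on that scale. In the count fits other signs turned. With the length trend removed the values were -0.017 for Rpl10, -0.031 for Rpl22, -0.055 for Rplp2 and -0.023 for Rps4x. With both trends removed they were -0.026 for Rpl10, -0.066 for Rpl22, -0.0032 for Rpl36a, -0.0035 for Rplp2 and -0.047 for Rps4x. With the range as a covariate as well, Rpl10 stood at -0.023, Rpl22 at -0.062, Rpl36a at -0.0038 and Rps4x at -0.047. With the fragment class instead, Rpl22 stood at -0.037, Rpl36a at -0.023, Rps4x at -0.045 and Rps27 at -0.20. With the trends removed and transplant replicate 1 left out, Rpl10 stood at -0.035, Rpl22 at -0.071, Rplp2 at -0.015 and Rps4x at -0.051. Rps19bp1 stood at -0.0098 in samples numbered below 100, and Rps27 at -0.93 in libraries of shorter fragments.

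Of the 13 called genes, each stayed called in 4 to 9 of the 14 fits that left out 1 library. The 3 untested paralogs had at most 3 counts in a library, and reads of Rps27 and Rps27rt or of Rpl10 and Rpl10-ps3 cannot be told apart over their shared bases.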
